A study of Homo sapiens with 9 samples.

Results

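The 7 short noncoding RNA genes described here are transcribed by RNA polymerase III and were followed through 6 lists of chromatin immunoprecipitation peaks: RMRP, RPPH1, RN7SL1, RN7SL2, VTRNA1-1, RNY1 and RNY3. Peaks were taken where any base lay within 3 kb of a position given for each gene on hg19, and each peak was assigned to the nearest of the 7 positions. This gave 16 of the 27469 peaks of the 6 lists, 14 of them for the RNA helicase DDX21 and 2 for the kinase CDK9. The chromatin came from A375, an established human melanoma line. The groups were DMSO, A771726, and A771726 plus nucleotides that the labels do not name. The treatment protocol, the same for all samples, gives 25 µM A771726 and 24 h. A771726 inhibits dihydroorotate dehydrogenase and so pyrimidine synthesis. With a single library (n = 1) for every combination of antibody and group, differences between treatments have no replicate check and carry no p-value.

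RNA polymerase III makes short, abundant RNAs that are not translated. RMRP, RPPH1 and the Y RNA genes are driven from elements upstream of their start (a TATA box and a proximal and a distal sequence element), whereas the 7SL and vault RNA genes also use elements inside the transcribed part. RMRP is the RNA of RNase MRP, a nucleolar ribonucleoprotein that cleaves the ribosomal RNA precursor, and RPPH1 is the RNA of RNase P, which trims the 5′ end of transfer RNA precursors. RN7SL1 and RN7SL2 encode the 7SL RNA of the signal recognition particle, VTRNA1-1 a vault RNA, and RNY1 and RNY3 the Y RNAs bound by the Ro60 protein. DDX21 is a mainly nucleolar helicase with known roles in ribosome production and in transcription by RNA polymerases I and II. CDK9, with a cyclin, forms P-TEFb, which acts on RNA polymerase II.

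RMRP and RPPH1 each share a divergent promoter region with a protein-coding gene, so the letters between the paired starts are shown as the upstream region that each RNA gene has in common with its neighbour. Of the 7 genes, 0 matched an entry of the RefSeq promoter table (GRCh38.p14), and the 250 bases upstream of the neighbours CCDC107 and PARP2 are printed from it. Both run on the plus strand of GRCh38.p14, chr9:35658042-35658291 for CCDC107 and chr14:20343385-20343634 for PARP2, in the direction of the neighbour and opposite to that of RMRP and RPPH1. Capitals mark the TATA box TATAA, the octamer ATGCAAAT and the cAMP response element TGACGTCA, each searched on both strands.
CCDC107 upstream region, starting 23 bases upstream of the RMRP start: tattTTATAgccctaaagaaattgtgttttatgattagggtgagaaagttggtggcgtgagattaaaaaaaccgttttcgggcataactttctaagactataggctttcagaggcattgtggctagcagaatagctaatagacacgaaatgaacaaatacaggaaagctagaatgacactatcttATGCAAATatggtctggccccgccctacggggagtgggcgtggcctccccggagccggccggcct
PARP2 upstream region, whose first 27 bases are transcribed as RPPH1: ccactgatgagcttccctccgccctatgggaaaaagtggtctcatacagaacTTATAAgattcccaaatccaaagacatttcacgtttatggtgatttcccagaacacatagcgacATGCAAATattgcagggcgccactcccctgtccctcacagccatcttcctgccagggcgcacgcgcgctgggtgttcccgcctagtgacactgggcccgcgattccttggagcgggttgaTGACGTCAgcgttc

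The TATA box lay from 27 to 31 bases upstream of the RMRP start and from 26 to 30 bases upstream of the RPPH1 start, reading towards each RNA. In the RPPH1 region the same 6 capitals hold TATAA on either strand, the matches overlapping by all but their outer base. The octamer, the core of a distal sequence element, began 208 bases upstream of RMRP and 90 bases upstream of RPPH1. Among all 35116 upstream windows of 250 bases in the table, 18.9% held TATAA, 1.63% the octamer and 1.65% the cAMP response element. The B box, an internal element of RNA polymerase III genes held by 0.151% of windows, and the letters ACTACAA, held by 2.47%, were in neither region. The printed regions hold 0 transcribed bases of RMRP and 27 of RPPH1, so they cannot show whether either gene has a B box. The peaks are on hg19 and were not placed on these letters. A peak at RMRP or RPPH1 cannot be told apart from a peak at the promoter of its protein-coding neighbour.

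DDX21 had a peak at 4 of the 7 genes in DMSO, at 3 with A771726 and at 3 with A771726 and nucleotides. These DDX21 lists held 8321, 4375 and 7922 peaks. Of all DDX21 peaks of DMSO, 51.1% overlapped a peak with A771726 and 86.3% one with nucleotides. RMRP and RN7SL1 had a DDX21 peak in all 3 lists, RPPH1 in the lists from DMSO and with nucleotides, and RN7SL2 in those from DMSO and with A771726. VTRNA1-1, RNY1 and RNY3 had none. CDK9 had a peak at RNY1 in DMSO, at RMRP with A771726, and at 0 of the 7 genes with nucleotides. VTRNA1-1 and RNY3 were without a peak of either antibody in the 6 lists, and no other genes of the 7 had the same pattern of presence.

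Peak heights were worked out in fragments. The fold enrichment and −log10 p of each deposited peak fix a whole number of fragments over its summit (the pileup) and the local background it was tested against. To set lists side by side, a height was formed as that pileup over the lowest background found in the same list. Values in parentheses after a pileup, height or ratio are exact Poisson or binomial 95% intervals, and they cover counting error only. The authors' peak caller gave the fold enrichment and −log10 q, which are used to describe a peak within its own list.

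**Figure D1:**
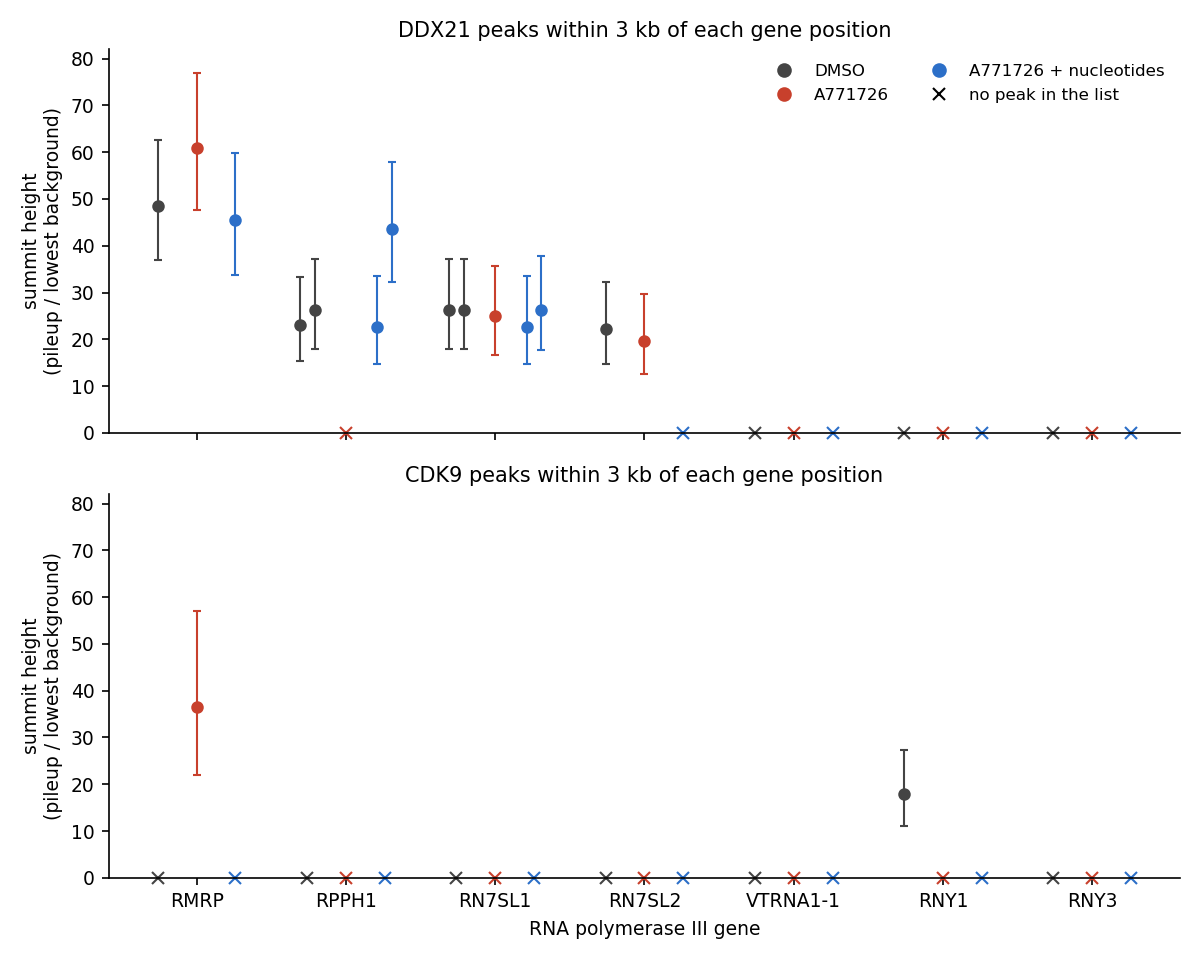
Summit height (pileup over the lowest background of the list) of each peak at the 7 genes, DDX21 above and CDK9 below, coloured by treatment, with exact Poisson 95% intervals and a cross where a list had no peak. RMRP had the tallest DDX21 peak in each list, from 45.4 to 61.0, and the CDK9 panel holds only the peaks at RMRP with A771726 and at RNY1 in DMSO.

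At RMRP the DDX21 summit held 59 fragments in DMSO (44.9 to 76.1), 71 with A771726 (55.5 to 89.6) and 50 with nucleotides (37.1 to 65.9). The 3 libraries thus overlapped in their counting intervals, and the library with A771726 was the highest. The peak ran on chromosome 9 from 35657729 to 35657913 in DMSO, from 35657694 to 35657952 with A771726 and from 35657692 to 35657941 with nucleotides. The 3 summits fell within 10 bp of each other, 86, 96 and 87 bp below the gene position. Fold enrichment was 4.53, 7.35 and 5.76 in these lists, and −log10 q was 18.5, 35.5 and 20.5. Within its own list the peak stood above 33.3% of DMSO peaks by −log10 q, above 56.5% of peaks with A771726 and above 36.6% with nucleotides. The lists held 8321, 4375 and 7922 peaks, so these shares and the caller's values do not show a change between treatments. Its width of 185 bp in DMSO compared with 259 bp under A771726 and 250 bp when nucleotides were added.

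The height of DDX21 at RMRP with A771726 was 1.26 times that in DMSO (0.877 to 1.81). This interval includes 1, so a rise at RMRP was not shown, but it lies above the median ratio of 0.418 over the 4253 DDX21 sites with a peak in both lists. Of those sites, 0.988% had a ratio above 1, and 4250 had a ratio below that of RMRP. Among the 1074 sites whose DMSO pileup was within 1.5 times that of RMRP, the median was 0.380 and 1072 were lower. Wider peaks with A771726 were also uncommon, at 1.69% of the 4253 sites, whose median width was 399 bp in DMSO and 244 bp with A771726. With nucleotides the RMRP ratio to DMSO was 0.936 (0.629 to 1.39), against a median of 1.04 over 7180 sites, of which 60.8% were above 1 and 61.8% were wider.

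RMRP stood at a high local background. In DMSO the background of its peak was 10.1 times the lowest of the list, higher than that of 95.5% of DDX21 peaks, and it was 7.55 times with A771726 and 7.13 times with nucleotides. Among the 270 shared sites with at least the DMSO background of RMRP, the median ratio was 0.529, 8.52% were above 1, and 99.6% were below RMRP. The part of this background in the RMRP ratio was not tested beyond that split. With the local background subtracted from each pileup, an alternative chosen after the values were seen, the ratio was 1.39.

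The CDK9 peak at RMRP with A771726 lay inside the DDX21 peak of the same treatment. It ran on chromosome 9 from 35657774 to 35657935, a width of 162 bp that the DDX21 peak covered in full, and the 2 summits were 54 bp apart. Its summit held 19 fragments (11.4 to 29.7), with a fold enrichment of 4.63 and a −log10 q of 3.96, above 37.6% of the 290 peaks of that list. Of these 290 peaks, 15.5% lay on a DDX21 peak with A771726, and 22.4% overlapped no CDK9 peak of DMSO, as the RMRP peak did. Of the 65 without a DMSO peak, 5 lay on a DDX21 peak with A771726, a share of 7.69%, and RMRP was among them.

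CDK9 had no peak at RMRP in DMSO or with nucleotides. Had the local background at RMRP been the same multiple of the lowest background in those lists, a pileup of 21 fragments in DMSO and 22 with nucleotides would have been called. These correspond to 49.2% and 48.5% of the CDK9 height with A771726, which was 36.5 (22.0 to 57.0). In unscaled fragments they are 111% and 116% of the 19 seen with A771726, and over the estimated tags 126% and 125%. Whether an equal CDK9 peak would have been called at RMRP in those lists thus depends on the scaling. In the CDK9 list with A771726 peaks went down to 50 bp, against 128 and 129 bp in the others, so these heights are not on an equal footing. Whether the fragment length set this difference was not tested.

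**Figure D2:**
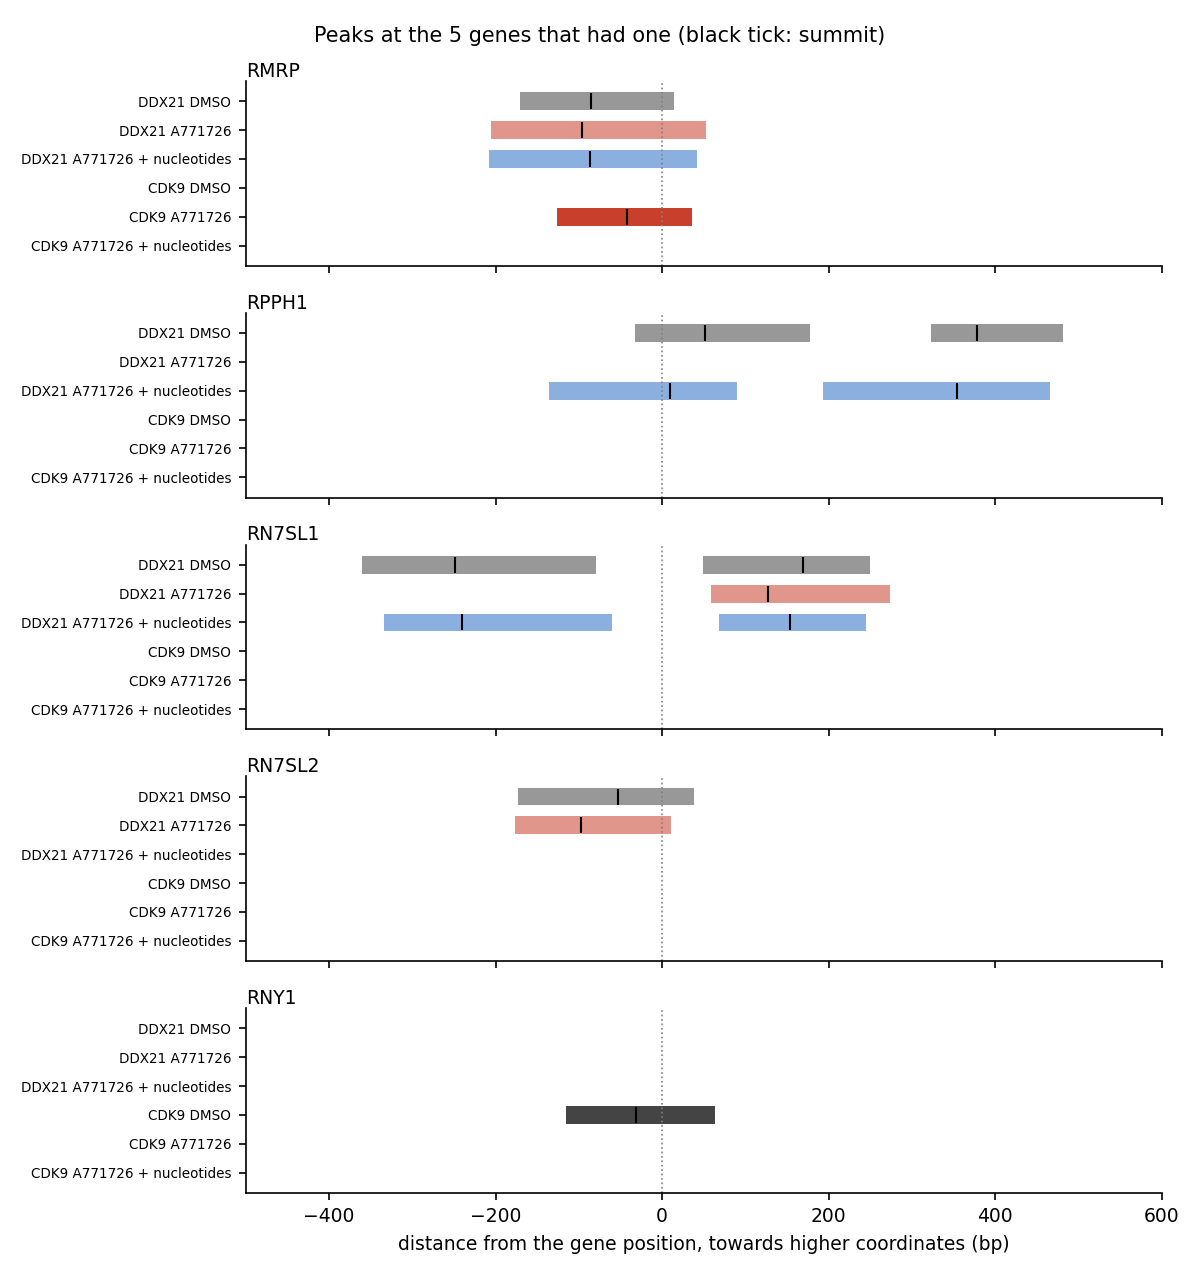
Extent of each peak at the 5 genes that had one, as distance in bp from the gene position, with black ticks at summits and 1 row per antibody and treatment. At RMRP the CDK9 peak with A771726 sits inside the DDX21 peak, and at RPPH1 and RN7SL1 the DDX21 signal falls into a pair of peaks.

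RPPH1 carried 2 DDX21 peaks in DMSO and again with nucleotides, and none with A771726. In DMSO the first ran on chromosome 14 from 20811367 to 20811576 with 28 fragments (18.6 to 40.5), and the second from 20811723 to 20811880 with 32 (21.9 to 45.2). With nucleotides they ran from 20811264 to 20811489 with 25 fragments (16.2 to 36.9) and from 20811593 to 20811865 with 48 (35.4 to 63.6). The peaks of a pair were separated by 146 bp in DMSO and by 103 bp with nucleotides. The first lay over the gene position and the second at higher coordinates, the side on which PARP2 lies in the RefSeq table, 224 bp from RPPH1. Fold enrichment was 5.54 and 4.88 in DMSO and 4.46 and 5.94 with nucleotides.

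With nucleotides the taller RPPH1 peak was 1.66 times as high as the taller peak of DMSO (1.04 to 2.68), and 7048 of 7180 shared sites had a lower ratio. The peaks nearest to the gene position gave 0.986, so the higher value belonged to the second peak. With A771726 a peak of 15 fragments at the first summit or 17 at the second would have been called at the same relative background as in DMSO. These are 55.9% and 55.5% of the DMSO heights. At that background the missing peaks bound the height to below about that share. A ratio at the median of all shared sites, 0.418, would then also have left RPPH1 without a peak. The background at RPPH1 with A771726 is not known. At RMRP, RN7SL1 and RN7SL2 it was a lower multiple than in DMSO, with 7.55 against 10.1, 2.31 against 4.14 and 2.75 against 4.14.

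RN7SL1 had DDX21 peaks on both sides of its position in DMSO and with nucleotides, and with A771726 only the peak on the higher side. The nearest protein-coding gene to RN7SL1 in the RefSeq table of GRCh38, RPS29, lies at a distance of 0 bp. Whether these peaks belong to RN7SL1 or to RPS29 was not tested. In DMSO the pair ran on chromosome 14 from 50053039 to 50053319 and from 50053449 to 50053649, each with a pileup of 32 (21.9 to 45.2). With nucleotides the pileups were 25 (16.2 to 36.9) and 29 (19.4 to 41.6), at 50053066 to 50053339 and 50053468 to 50053644. With A771726 the single peak ran from 50053459 to 50053673 with 29 fragments (19.4 to 41.6), a fold enrichment of 8.13 and a −log10 q of 16.9. Fold enrichment in DMSO was 4.03 and 5.47 for the lower and higher peak. The higher-side peak thus held 32, 29 and 29 fragments in the 3 libraries, which overlap in their intervals.

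RN7SL2 had a DDX21 peak of 27 fragments in DMSO (17.8 to 39.3) and of 23 with A771726 (14.6 to 34.5). They ran on chromosome 14 from 50329227 to 50329437 and from 50329223 to 50329410, with fold enrichments of 4.64 and 5.72. With nucleotides no peak was listed, where 15 fragments, or 61.4% of the DMSO height, would have been called at the DMSO multiple of the lowest background. RN7SL2 was the only gene of the 7 with a DDX21 peak in DMSO and with A771726 but not with nucleotides.

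The height ratio of A771726 to DMSO was 0.946 at RN7SL1 (0.552 to 1.61) and 0.889 at RN7SL2 (0.487 to 1.61). Both intervals include 1 and lie above the median of 0.418. Of the 4253 shared sites, 4184 were below RN7SL1 and 4154 below RN7SL2. Low peaks can be shared only when their ratio is high enough to be called. Among sites of similar DMSO pileup the medians were 0.493 and 0.546, and 192 of 216 and 95 of 118 sites were lower. The interval at RN7SL2 includes its median of 0.546, and that at RN7SL1 lies above 0.493. The RNAs of RN7SL1 and RN7SL2 are near-identical, and the RefSeq table lists 684 RN7SL pseudogenes. The handling of reads that map to several places is not given in the sources used here. Signal at these 2 genes may be split between copies or drawn from them.

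**Figure D3:**
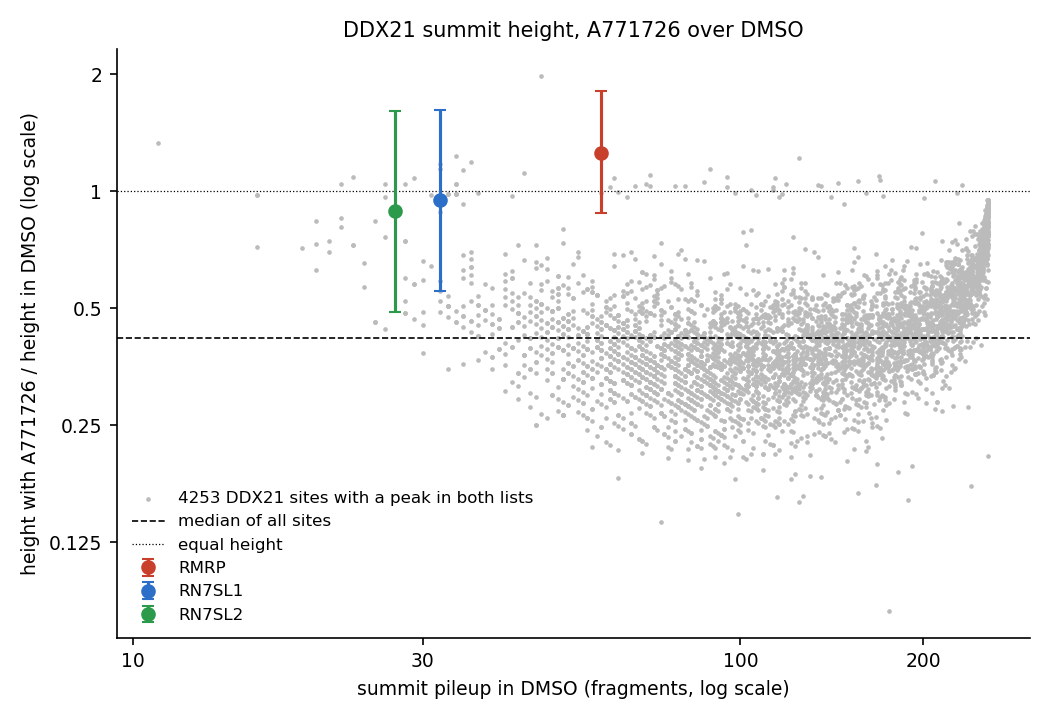
Height with A771726 over height in DMSO (log scale) against the DMSO summit pileup in fragments (log scale) for the 4253 DDX21 sites with a peak in both lists, with RMRP, RN7SL1 and RN7SL2 in colour and their exact binomial 95% intervals. The 3 genes lie at 1.26, 0.946 and 0.889, above the dashed median of 0.418.

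Set against all DDX21 peaks of DMSO, whatever their strength, keeping a peak with A771726 was no more frequent at the 7 genes. Of their 6 DDX21 peaks in DMSO, 3 overlapped a peak with A771726, against 51.1% of all 8321. With nucleotides 5 of the 6 did, against 86.3%. The 6 peaks were weak, with −log10 q from 8.43 to 18.5, and none stood above more than 33.3% of the list. In that range of −log10 q, 84 of 1380 DDX21 peaks of DMSO overlapped one with A771726, or 6.09% (4.88 to 7.48), and 77.6% (75.3 to 79.8) overlapped one with nucleotides. The range was set from these 6 peaks after their values were seen, and the 6 come from 4 genes, so the shares are given as a description.

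DDX21 sites in the flanks, from 3 to 50 kb of the 7 positions, had lower heights with A771726 where both lists had a peak. The flanks held 12 distinct DDX21 peaks in DMSO, of which 5 had a peak with A771726, with ratios from 0.305 to 0.559. Of all DDX21 peaks of DMSO 51.1% had one, and the shared sites had a median ratio of 0.418, with quartiles of 0.348 and 0.509. Lower heights with A771726 are thus not particular to these flanks. The 5 flank sites held 48 to 192 fragments in DMSO, so low ratios could still be called. RN7SL1 and RN7SL2, with 32 and 27, could be shared only at a higher ratio, so their contrast with the flanks is partly set by the calling. The flank site 11.0 kb below RMRP, on chromosome 9 from 35646525 to 35647054, held 192, 74 and 169 fragments in DMSO, A771726 and A771726 with nucleotides. Its ratio of A771726 to DMSO was 0.402 (0.303 to 0.529), below the interval at RMRP. The site 9.86 kb below RN7SL2 held 67, 24 and 45 fragments, with a ratio of 0.374 (0.224 to 0.604). At VTRNA1-1, which had no peak of its own, flank sites 10.9 kb and 19.9 kb below it held 155 and 130 fragments in DMSO and 83 and 38 with A771726. CDK9 had no peak in the flanks of RMRP, RPPH1, RN7SL1, RN7SL2 and VTRNA1-1 in any of its 3 lists.

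**Figure D4:**
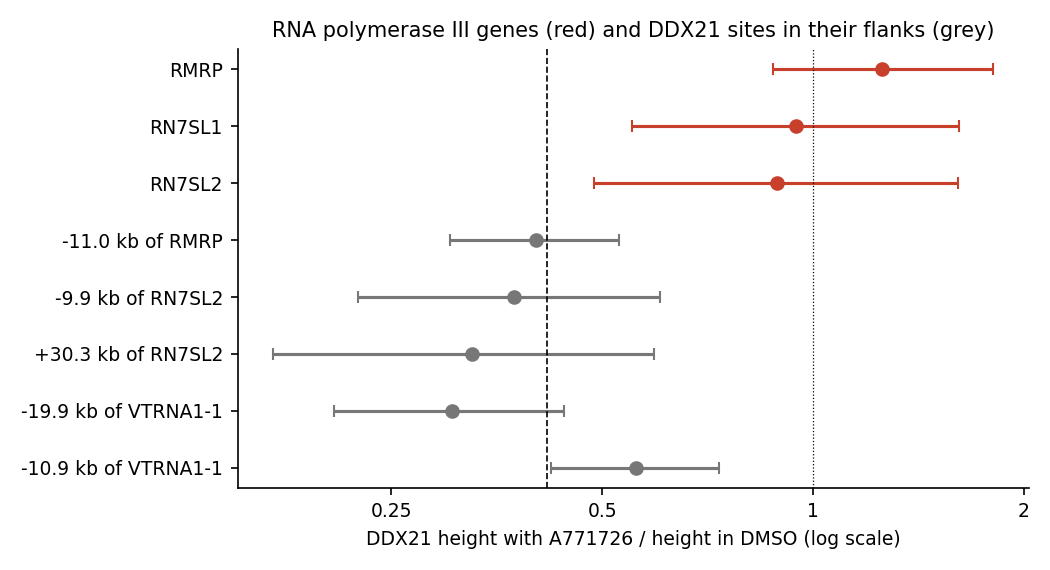
Ratio of DDX21 height with A771726 to that in DMSO (log scale) at the 3 genes with a peak in both lists, in red, and at the 5 flank sites, in grey, with exact binomial 95% intervals; the dashed line is the median of all shared sites and the dotted line is 1. The genes lie between 0.889 and 1.26 and the flank sites between 0.305 and 0.559. RN7SL1 and RN7SL2 had low DMSO peaks, which can be shared only when their ratio is high enough to be called.

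RNY1 had the only CDK9 peak of the 7 genes in DMSO, on chromosome 7 from 148684185 to 148684362. Its summit held 21 fragments (13.0 to 32.1) and lay 31 bp below the gene position, with a fold enrichment of 3.36 and a −log10 q of 3.17. It was a weak peak, above 13.6% of the DMSO list. It overlapped no peak with A771726 or with nucleotides, while 5.4% and 45.2% of all CDK9 peaks of DMSO did. At the same relative background a call needed 13 fragments with A771726 and 18 with nucleotides. With A771726 this is 139% of the DMSO height, but 61.9% of the DMSO peak in unscaled fragments and 54.4% over the estimated tags. With nucleotides the 3 values are 80.7%, 85.7% and 81.3%. As at RMRP, the shorter peaks of the CDK9 list with A771726 put its heights on an unequal footing.

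The Y RNA genes form a cluster, and the other CDK9 peaks within 50 kb of RNY1 lay on its lower side, where the other two members of the cluster are. In DMSO a CDK9 peak with 23 fragments had its summit 24.3 kb below the RNY1 position, and with nucleotides a peak with 17 fragments had its summit 45.7 kb below it. In the RefSeq table of GRCh38, RNY4 lies 23.7 kb and RNY5 45.6 kb below RNY1. The peaks are on hg19, and whether they lie on RNY4 and RNY5 was not tested. RNY3, the neighbour of RNY1, had no peak of either antibody within 3 kb, and the RNY1 peak lay beyond that distance from it. DDX21 had no peak at RNY1 or RNY3, and the summit of its nearest peak was 7.75 kb below RNY3, in DMSO alone, with 27 fragments.

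At VTRNA1-1, RNY1 and RNY3 the lack of a DDX21 peak is bounded by what could be called. At the lowest background of each list, a summit of 7 fragments (DMSO), 8 (A771726) or 7 (A771726 with nucleotides) would have been called, and more are needed where the local background is higher. For CDK9 these numbers were 8, 7 and 8. Genes without a peak are thus not shown to lack binding.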

How the data were processed

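Peak lists of the 6 DDX21 and CDK9 libraries were analysed, without the 3 inputs. Titles gave the groups, with 1 library in each. Per the submitters' processing notes the tools were Bowtie and MACS2 2.0 and the build hg19; their parameters are not stated there. The authors' deposited fold enrichment is a ratio of summit signal to local background. The authors also deposited the −log10 of each peak's p-value and q-value, with q under 0.05 throughout.

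Fold enrichment was read as (pileup + 1)/(background + 1) and −log10 p as a Poisson upper tail. A whole-number pileup met both within 0.001 in 100% of peaks of each list. Solving for the pileup was tested on peaks simulated with these same formulas. That test covers neither the formulas themselves nor the scaling by the lowest background. Read totals are unknown. The lowest background over the shortest peak gave tags relative to DMSO of 1.06 and 0.884 for DDX21 and 1.14 and 1.05 for CDK9, with A771726 and with nucleotides. Where a gene had 2 peaks the taller entered a ratio, the nearer at a tie. Peaks overlapped from 1 bp. Ratio intervals came from the exact binomial (Clopper-Pearson) interval of the 2 pileups. A missing peak's bound used the lowest −log10 p called in its list.

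The 7 genes, the rule and the gene lists were chosen with earlier results of these data known. All 7 genes are named. Other genes are named only as neighbours in the RefSeq table (GRCh38.p14), which was used for names and distances. Further RNA polymerase III genes such as RN7SK and RNU6-1 were not located on hg19 and are not analysed here. Python 3.11.15, pandas 2.3.3 and scipy 1.17.1 were used.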

Additional observations from a re-analysis of the deposited data

How the results depend on the processing

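Of 74 alternatives, 62 left the value within its interval or, for a number of genes, within 1.5 times it. When every list of an antibody was shortened to its strongest peaks at an equal number, 0 of the 7 genes had a DDX21 peak in DMSO and 0 with nucleotides, 3 had one with A771726, and 0 had a CDK9 peak in DMSO. All DDX21 peaks of these genes in DMSO and with nucleotides rank below that limit. The limit is the length of the list with A771726, 4375 peaks for DDX21 and 290 for CDK9. Those lists were not cut, so their numbers of genes could not change. The CDK9 list of DMSO was cut from 3462 peaks to 290. With a −log10 q of at least 5, the number with a CDK9 peak was 0 in DMSO and 0 with A771726. The ratio of A771726 with nucleotides to DMSO at RPPH1 was 0.986 for the peaks nearest to the position, where the taller peaks gave 1.66. The smallest CDK9 pileup that would have been called, as a share of the peak in the other list, crossed 100% when scaled otherwise, alternatives chosen after seeing the data. At RMRP in DMSO it was 111% unscaled and 126% over the estimated tags (49.2% over the lowest background), and with nucleotides 116% and 125% (48.5%). At RNY1 with A771726 it was 61.9% and 54.4% (139%). The ratio of A771726 to DMSO at RMRP ran from 1.14 to 1.39 over its alternatives. No gene had a CDK9 peak in both lists of a comparison, so no CDK9 ratio could be given. Each group had 1 library, so no library could be left out. No paired analysis was possible because the groups have 1 library each.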

Other observations

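The 3 genes with a DDX21 peak in DMSO and with A771726 were among the sites with the highest ratios of A771726 to DMSO, described after the values were seen. Among the 2523 shared DDX21 sites with a DMSO pileup of at most 150, 65 had a ratio of at least 0.8, RMRP, RN7SL1 and RN7SL2 among them. Low peaks such as those of RN7SL1 and RN7SL2 can be shared only at a ratio high enough to be called. Their place among the 65 is thus partly set by the calling. The ratios were not spread evenly: 20 sites lay from 0.7 to 0.8, 6 from 0.8 to 0.9, 47 from 0.9 to 1.1, and 12 above that. RN7SL2 was among the 6, RN7SL1 among the 47 and RMRP among the 12. The 65 sites had a median background of 5.92 times the lowest (quartiles 3.55 and 12.4), against 4.17 (2.96 and 5.92) for the other 2458. RMRP had a background of 10.1 times the lowest in DMSO, whereas RN7SL1 and RN7SL2 each had 4.14, below the median of the other sites. A CDK9 peak of DMSO lay on 2 of the 65 (3.08%) and 225 of the others (9.15%). One with A771726 lay on 2 (3.08%) and 31 (1.26%), and one with nucleotides on 1 (1.54%) and 178 (7.24%). The numbers among the 65 are too small to show a difference, and none was tested. The 2 shared sites with a higher ratio than RMRP lay on chromosome 15 from 65809520 to 65809777, with 47 fragments in DMSO and 89 with A771726, and on chromosome 7 from 156111276 to 156111422, with 11 and 14.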
